A study of Mus musculus with 20 samples.

Results

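Genes of the cholesterol synthesis pathway were followed in the adipocyte translatome of lean, obese and formerly obese mice. They were the rows of the gene count table whose Ensembl identifiers map to Hmgcs1, Idi1, Fdps, Fdft1, Sqle, Lss, Srebf2 and Insig1. These are 8 of the 46078 genes in the table, and all 8 were among the 21464 genes with enough counts to be tested. None of the 8 encodes a receptor that takes up LDL, so the set covers synthesis and its control.

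Cholesterol is made from acetyl-CoA by a chain of enzymes. Hmgcs1 condenses acetyl units into HMG-CoA, Idi1 isomerizes isopentenyl diphosphate, Fdps builds farnesyl diphosphate and Fdft1 joins farnesyl units into squalene, the first step committed to sterols. Sqle oxidizes squalene and Lss closes the rings to lanosterol. Srebf2 encodes SREBP-2, the transcription factor that turns on the pathway when sterols are scarce, and Insig1 encodes an endoplasmic reticulum protein that holds SREBP back when sterols are plentiful and is itself an SREBP target. Adipocytes store a large pool of free cholesterol, much of it taken up from lipoproteins.

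TRAP–seq reads the mRNA that is being translated in a chosen cell type. All 20 mice were AdipoERCre x NuTRAP, on a background that the labels spell C576BL6, and received tamoxifen before the diets. Adipocytes with an active adiponectin-driven Cre thus carried GFP-tagged ribosomes, which were pulled down from epididymal adipose tissue (epiAT). In the short arm, 3 mice each were C (18 weeks old, chow), H (18 weeks old, 12 weeks of high-fat diet, HFD), CC_s (26 weeks old, chow) and HC (26 weeks old, 12 weeks of HFD and then 8 weeks of chow, the weight-loss group). In the long arm, 2 mice each were CC_l (31 weeks old, chow), HH (31 weeks old, 25 weeks of HFD), CCC (39 weeks old, chow) and HHC (39 weeks old, 25 weeks of HFD and then 8 weeks of chow). The labels call each mouse a biological replicate. The count columns of the arms carry different prefixes, whose meaning the labels do not give. Every HFD or weight-loss group was thus compared with the chow group of its own arm and age. Levels are counts scaled to a common library size (CPM) after TMM scaling, and log2 fold changes are given with their standard error (SE). A gene was called when edgeR's quasi-likelihood test gave a nominal p under 0.01 and the absolute log2 fold change was at least 1, the study's rule, and the p adjusted by Benjamini-Hochberg over all tested genes stands beside it.

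Depth ranged from 10710277 to 36738954 counts per library, and 3 counts corresponded to at most 0.28 CPM, below the lowest level of any of the 8 genes. All 8 adipocyte markers, with Adipoq and Plin1 among them, were detected in every library, but their summed level differed widely, from 28700 to 131000 CPM within C alone. The summed level of 10 macrophage markers was 231 to 402 CPM in C and 652 to 3470 in H, and 239 to 407 in CC_l against 3680 to 4770 in HH. C replicates 1 and 2, H replicate 2, HC replicate 3, CC_l replicate 1 and CCC replicate 2 also held high summed levels of epididymal epithelium (over all libraries 0.239 to 1830 CPM), spermatid (0.127 to 3330 CPM) or nuclear-retained RNA markers (2790 to 37600 CPM), and values without these 6 libraries are given beside the results that they move most. Without these 6 libraries, C, CC_l and CCC each hold a lone mouse, so H, HH and HHC then rest on a single control. In such bulk libraries, fewer cells of a type and less RNA per cell cannot be told apart.

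The promoters show the letters through which the pathway is read. SREBP binds a sterol regulatory element (SRE), usually beside boxes for NF-Y and Sp1. RefSeq promoter windows (GRCm38.p6, 250 bases before to 50 after the start of the gene) were held for 5 of the 8 genes, Hmgcs1, Insig1, Lss, Idi1 and Srebf2, and were searched on both strands for TCACNCCAC (SRE), CCAAT (NF-Y box), GGGCGG (Sp1 box) and CACGTG (E-box). Over 32851 promoter windows of this length, 1.24% held the SRE letters, 37.4% the NF-Y box, 35.7% the Sp1 box and 7.15% the E-box. The SRE was found once, in Hmgcs1 at position -137 relative to the start, and the E-box once, in Insig1. The NF-Y box was found in all 5 windows, 4 times in Hmgcs1, and the Sp1 box was found 5 times in Srebf2, 3 times each in Hmgcs1 and Insig1, 2 times in Lss and once in Idi1. The Hmgcs1 SRE at chr13:119690204-119690232 and 1 NF-Y box for each gene are shown, the first as the 1 match to the SREBP element and the others because every window holds this box. The Sp1 boxes, also in all 5 windows, are not shown. All are on the plus strand, which is the strand of these genes, and capitals mark the match, so that an NF-Y box on the minus strand reads ATTGG. The NF-Y windows lie at chr13:119690296-119690320 for Hmgcs1, chr5:28071186-28071210 for Insig1, chr10:76531533-76531557 for Lss, chr13:8885551-8885575 for Idi1 and chr15:82147124-82147148 for Srebf2. A match is a run of letters and no measurement of binding.
Hmgcs1 SRE: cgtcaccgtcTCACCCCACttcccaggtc
Hmgcs1 NF-Y box: cccgcctctcATTGGctgaaagcgg
Insig1 NF-Y box: ccctcctcccATTGGctccggcggc
Lss NF-Y box: tgatgctctgATTGGccgagctcgc
Idi1 NF-Y box: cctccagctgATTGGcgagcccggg
Srebf2 NF-Y box: tcgcgcgccgATTGGctaatgcaag

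Per kilobase of exon, the 8 genes covered a wide range of levels. The median over the 20 libraries was 58.7 CPM per kb for Insig1, 46.5 for Hmgcs1 and 23 for Fdft1. It was 2.77 for Sqle, 2.41 for Lss, 1.62 for Srebf2, 0.982 for Idi1 and 0.724 for Fdps. Neighbours in this order were not separated by their spread: Insig1 ranged from 20.2 to 212 CPM per kb and Hmgcs1 from 17 to 102, and the ranges of Sqle (1.35 to 5.68) and Lss (0.892 to 4.33) also overlapped. The levels of Insig1, Hmgcs1 and Fdft1 were thus set apart from those of the other 5 genes in their medians, with Fdft1 reaching down to 4.48 CPM per kb in its lowest library.

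**Figure D1:**
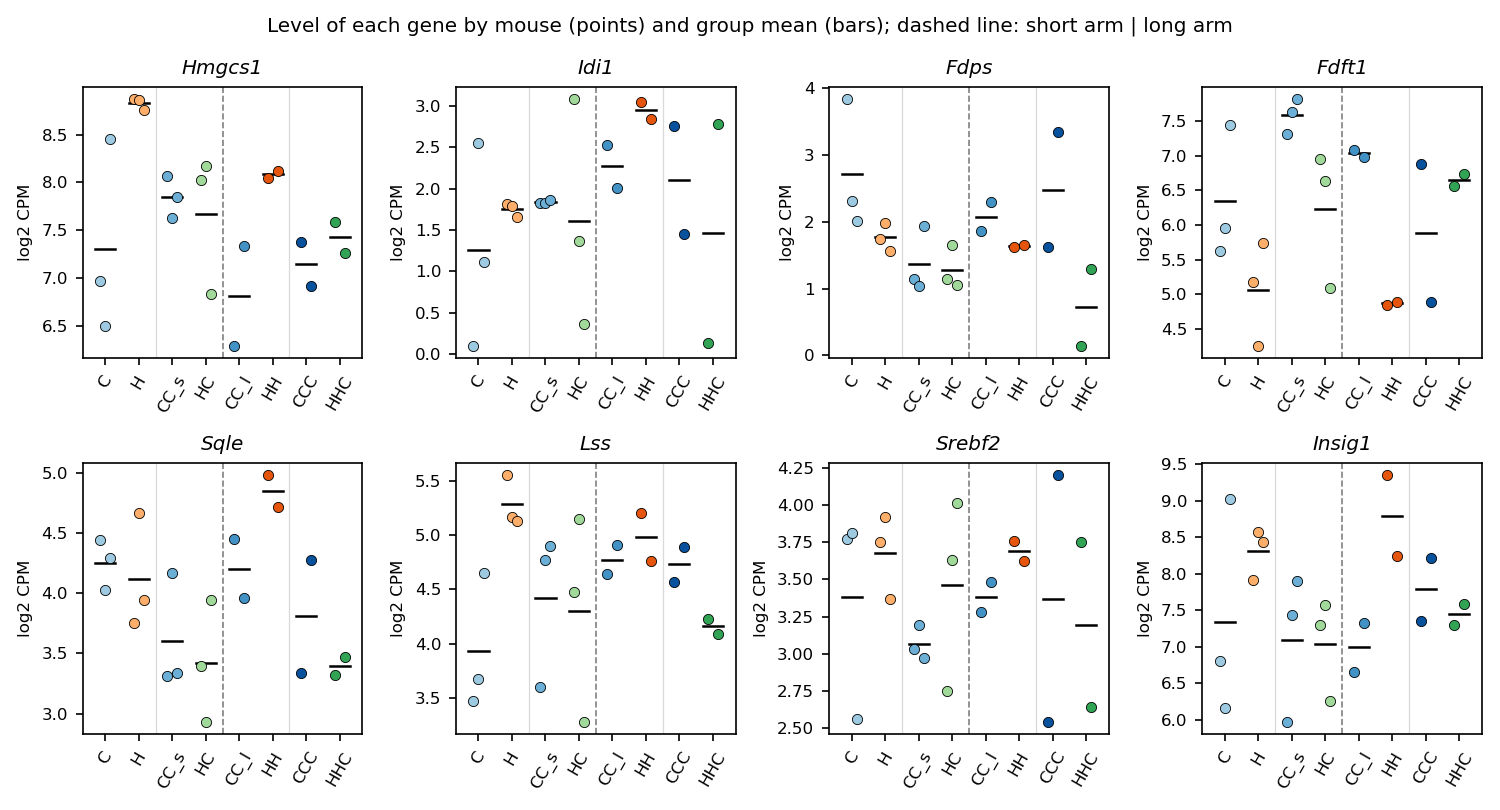
Log2 CPM (y axis) of the 8 genes in each mouse (points) with the group mean (bars) for the 8 groups (x axis), the dashed line separating the short from the long arm. Fdft1 sits at 28.8 and 29.5 CPM in the HH mice and at 136 and 127 CPM in the CC_l mice, and Hmgcs1 in the 3 H mice lies above all 3 C mice.

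Fdft1 was the 1 gene of the 8 that was called in any of the 4 comparisons with controls, and it was lower in obesity. Its level was 49, 62.1 and 175 CPM in the C mice and 36, 18.9 and 53.3 CPM in the H mice. It was 136 and 127 CPM in the CC_l mice and 28.8 and 29.5 CPM in the HH mice. After the long HFD both mice were thus far below both controls, whereas after the short HFD 1 H mouse overlapped with the lowest C mouse. In HH against CC_l Fdft1 fell by 2.17 on the log2 scale (SE 0.72, 95% interval -3.68 to -0.66, adjusted p = 0.128 in edgeR's quasi-likelihood test). Without the 6 libraries named above it was -2.05, with a lone CC_l mouse as the control. Without any 1 of the 4 mice it was -2.12 to -2.19 and no longer called. In H against C its log2 fold change was -1.40 (SE 0.57, adjusted p = 0.22).

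After weight loss, Fdft1 was below its controls in HC and between them in HHC, and a difference between the arms was not tested. The HC mice had 125, 99.5 and 34 CPM, all below the CC_s mice at 160, 197 and 226 CPM, with a log2 fold change of -1.17 (SE 0.57, adjusted p = 0.572 in edgeR) that was not called. The HHC mice had 94.7 and 106 CPM, between the CCC mice at 118 and 29.6 CPM, with a log2 fold change of 0.45 (SE 0.69, 95% interval -1.0 to 1.90). The change of the effect from HH to HHC was 2.62 (SE 0.99, adjusted p = 0.21 in edgeR), and from H to HC it was 0.23 (SE 0.79). Without CCC replicate 2, the lowest of the chow libraries, the HHC value was -0.23 and so of the other sign.

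Some values move with Fdft1. Across the 20 libraries, log2 Fdft1 followed the log2 summed level of the 8 adipocyte markers, with Pearson's r = 0.874 and Spearman's rho = 0.865 (permutation p = 1e-05 for each, the smallest that 100000 permutations can give, adjusted over 16 relations to 0.00016 and 8e-05). The relation held without the 2 libraries farthest from the median, C replicate 3 and HC replicate 3 (r = 0.88), within the short arm (r = 0.858 over 12 libraries), within the long arm (r = 0.925 over 8 libraries) and after each group's mean was subtracted (r = 0.882). Against the macrophage markers r was -0.818 and rho -0.842 (permutation p = 3e-05 and 2e-05, adjusted to 0.00016 and 0.000107), -0.784 without HH replicates 1 and 2, -0.889 in the short and -0.784 in the long arm. In HH against CC_l the median log2 fold change of the adipocyte markers was -1.49, with 1 of 8 called lower, while all 10 macrophage markers were called higher, with a median of 3.80. The part of these shifts in the fall of Fdft1 was not tested. The permutations ran over all 20 libraries regardless of group, so their p values also reflect differences between groups.

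**Figure D2:**
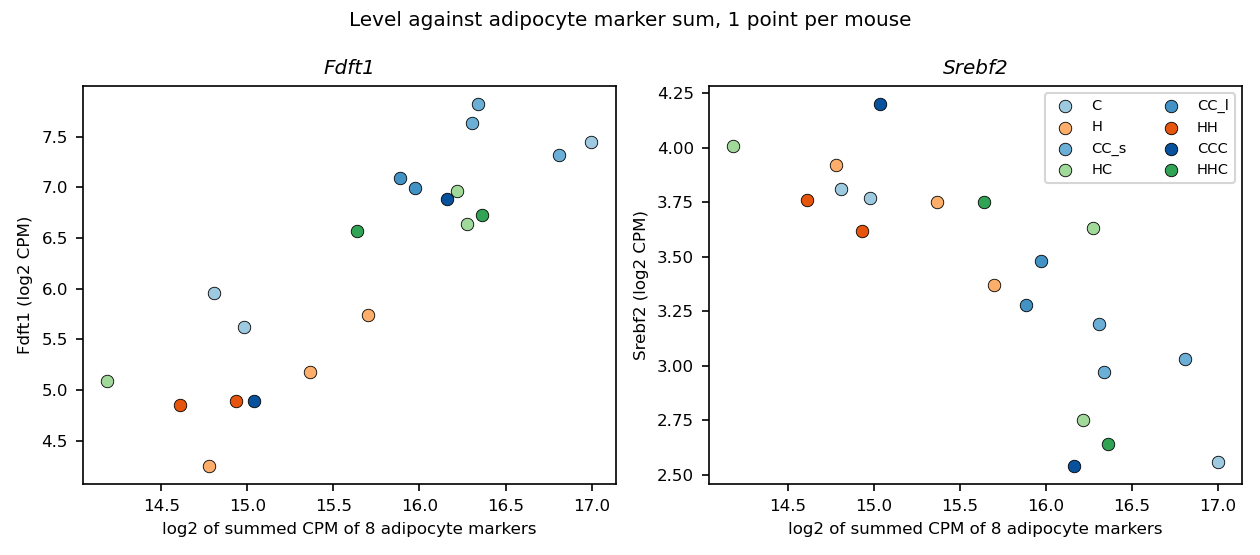
Log2 CPM of Fdft1 (left) and Srebf2 (right) against the log2 of the summed CPM of 8 adipocyte markers, with 1 point for each of 20 mice coloured by group. Fdft1 is higher where the marker sum is higher (r = 0.874) and Srebf2 lower (r = -0.825).

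Fdft1 also shares exon sequence with a neighbour. In the GENCODE vM21 annotation (mm10), Fdft1 lies on the minus strand at chr14:63145150-63179578, and 774 of its exon bases are also exonic in Ctsb, a lysosomal protease gene on the opposite strand. Of the 50-base words in Fdft1 transcripts, 26.5% also occur in 2 other genes, with 17.2% in Ctsb, so its counts are uncertain. Ctsb was 515 and 835 CPM in CC_l and 3620 and 3480 CPM in HH, a log2 fold change of 2.39 (SE 0.59, adjusted p = 0.0442 in edgeR). Reads on the shared bases cannot be assigned to one gene without strand, and their part in the Fdft1 counts was not tested.

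Hmgcs1, an early enzyme of the chain, was higher in every HFD mouse than in its own controls in both arms, yet was not called. The C mice had 125, 90.3 and 349 CPM and the H mice 467, 465 and 434 CPM. The CC_l mice had 78.3 and 161 CPM and the HH mice 265 and 279 CPM. The H and HH mice were closely grouped and the control mice were not, and no control reached the HFD mice of its arm. The log2 fold change was 1.27 in H (SE 0.48, adjusted p = 0.181) and 1.18 in HH (SE 0.58, adjusted p = 0.304 in edgeR). Both weight-loss groups overlapped with their controls. The HC mice had 259, 288 and 114 CPM against 269, 198 and 230 in CC_s, a log2 fold change of -0.08 (SE 0.47, 95% interval -1.07 to 0.91). The HHC mice had 192 and 153 CPM against 167 and 121 in CCC, a log2 fold change of 0.26 (SE 0.58, 95% interval -0.95 to 1.48). Of the 50-base words of Hmgcs1, 11.6% also occur in other genes, mostly in the antisense gene Gm48342 (10%).

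Lss, which makes lanosterol, was higher in H than in C in every mouse. It was 46.7, 35.8 and 35 CPM in H and 11, 12.7 and 25.1 CPM in C, a log2 fold change of 1.27 (SE 0.44, adjusted p = 0.15 in edgeR) that was not called. In the long arm the HH mice had 36.7 and 26.9 CPM and the CC_l mice 24.9 and 30 CPM, which overlap, with a log2 fold change of 0.21 (SE 0.53, 95% interval -0.91 to 1.34). The HHC mice, at 18.7 and 16.9 CPM, lay below the CCC mice at 23.6 and 29.5 CPM (log2 fold change -0.58, SE 0.54). The HC mice, at 22.2, 35.4 and 9.62 CPM, overlapped with the CC_s mice at 12, 27.2 and 29.7 CPM. The change of the Lss effect from H to HC was -1.30 (SE 0.62, adjusted p = 0.422 in edgeR).

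Insig1, the brake on SREBP, had its highest mean in HH. The HH mice had 655 and 302 CPM and the CC_l mice 101 and 161 CPM, a log2 fold change of 1.87 (SE 0.81, adjusted p = 0.245 in edgeR), not called. In the short arm the C mice spread from 72.1 and 112 to 524 CPM, around the H mice at 242, 379 and 348 CPM, and the log2 fold change of 0.45 had a 95% interval of -0.90 to 1.80. The HC mice (158, 191 and 76.5 CPM) lay within the range of CC_s (62.6, 173 and 238 CPM), and the HHC mice (157 and 193 CPM) overlapped with CCC (164 and 298 CPM). The change of the Insig1 effect from HH to HHC was -2.27 (SE 1.12, adjusted p = 0.34 in edgeR).

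The H comparison of Hmgcs1, Lss and Insig1 depended on which C mice were used. C replicate 3 had the highest level of each among the C mice and the highest adipocyte marker sum of all libraries (131000 CPM, against 32300 and 28700 in C replicates 1 and 2). Without it, all 3 genes were called, with log2 fold changes of 2.08 for Hmgcs1, 1.72 for Lss and 1.81 for Insig1. In that fit 875 of 21405 genes were called higher and 941 lower in H, against 766 and 626 of 21464 with all mice. Without the 6 libraries with other-tissue or nuclear RNA, which leaves C replicate 3 as the lone C mouse, Hmgcs1 was 0.44, Lss 0.78, Insig1 -0.75 and Srebf2 1.09, with Fdft1 the 1 called gene of the 8, at -1.89. A lone mouse is then taken to vary like those of the other groups.

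Sqle, the squalene epoxidase, was 31.5 and 26.2 CPM in HH and 21.8 and 15.5 CPM in CC_l, a log2 fold change of 0.63 (SE 0.46). These groups did not overlap. In H (13.3, 25.4 and 15.3 CPM) and C (21.6, 16.3 and 19.5 CPM) the values were mixed, with a log2 fold change of -0.09 and a 95% interval of -0.88 to 0.70. The weight-loss values were -0.18 in HC (SE 0.38) and -0.49 in HHC (SE 0.46), and both groups overlapped with their controls.

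Fdps and Idi1 were the lowest of the 8 genes. Fdps stood at 14.2, 4.86 and 3.94 CPM in C and at 3.27, 3.89 and 2.88 CPM in H (log2 fold change -1.19, SE 0.61). In HHC it was 1.01 and 2.37 CPM, below the CCC mice at 2.99 and 10 CPM (-1.94, SE 0.77, adjusted p = 0.384 in edgeR), and without CCC replicate 1 it was called at -2.56. Without CCC replicate 2 the HHC value was -0.82 and without the 6 libraries -0.69, neither called. In H it was -0.36 without C replicate 1 and -0.28 without the 6 libraries. The Fdps value in HC was -0.12 (SE 0.61) and in HH -0.47 (SE 0.74). Idi1 ranged from 0.98 to 8.38 CPM over all libraries, and its log2 fold changes were 0.16, 0.21, 0.67 and -0.25 in H, HC, HH and HHC, with SEs of 0.77 to 0.95. The HH mice, at 8.21 and 7.08 CPM, were above the CC_l mice at 5.67 and 3.93 CPM. Both genes share sequence with others, 26.2% of the 50-base words of Fdps (mostly with Gm43738, which overlaps it on the same strand) and 25.3% of those of Idi1 (mostly with the processed pseudogene Gm13502), so their counts are uncertain.

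Srebf2, the transcription factor gene itself, had the smallest range of the 8 genes over all libraries (3.19-fold from lowest to highest), though within groups its SD of 0.58 on the log2 scale was above that of Sqle, at 0.42. Its log2 fold changes were 0.22 in H (95% interval -0.77 to 1.2), 0.49 in HC (-0.50 to 1.48), 0.31 in HH (-0.90 to 1.52) and -0.30 in HHC (-1.51 to 0.91). It ran from 5.74 CPM in CCC replicate 1 to 18.3 CPM in CCC replicate 2, mice of the same group. Over the libraries it went against the adipocyte marker sum (r = -0.825, rho = -0.847, permutation p = 3e-05 and 1e-05, adjusted to 0.00016 and 8e-05), also without C replicate 3 and HC replicate 3 (r = -0.777), in the short (r = -0.885) and the long arm (r = -0.786) and with group means subtracted (r = -0.814). Of the other 6 genes, Sqle had an r of -0.566 with the adipocyte markers (rho -0.532, permutation p = 0.0101 and 0.0165, adjusted to 0.0403 and 0.0662), -0.462 in the short and -0.79 in the long arm. Hmgcs1 had an r of 0.205 over all libraries, 0.41 in the short and -0.495 in the long arm, but 0.827 with group means subtracted, and Insig1 had -0.0233, 0.297, -0.812 and 0.501.

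**Figure D3:**
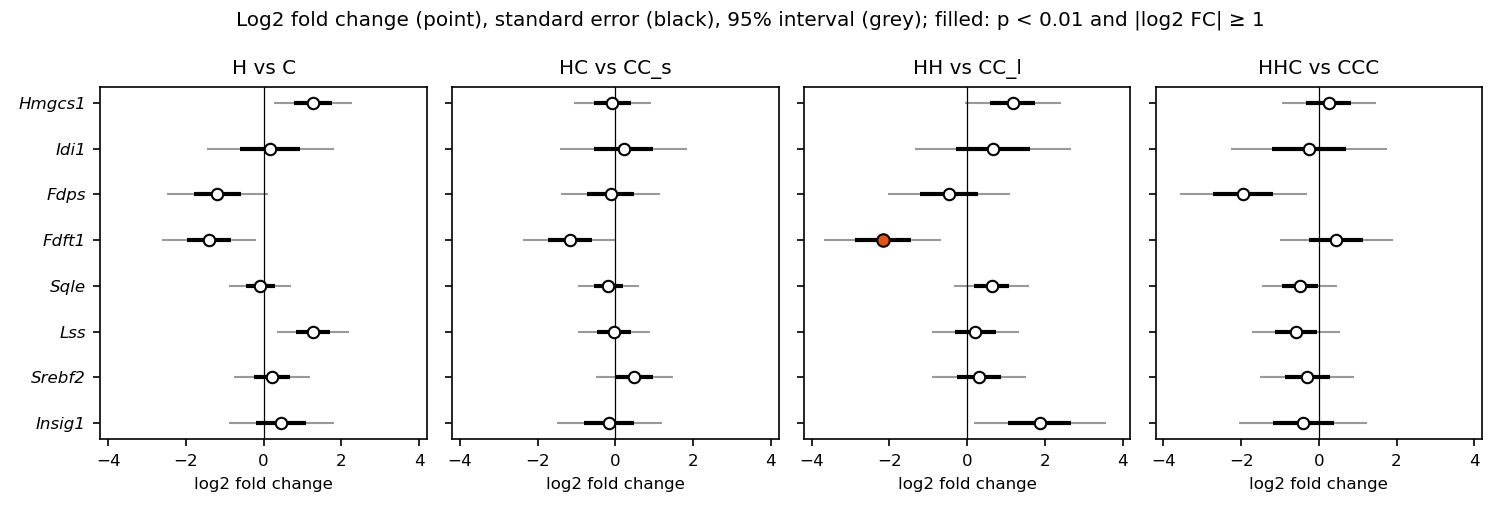
Log2 fold change (x axis) of each of the 8 genes (y axis) in the 4 comparisons, with the SE in black and the 95% interval in grey, and filled points for called genes. The filled point is Fdft1 in HH against CC_l, at -2.17.

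Counted together, 0 of the 8 genes were called in H, 0 in HC, 1 in HH and 0 in HHC, against 6.49%, 1.74%, 6.79% and 3.12% of all tested genes. By direction, 1.88% of all genes were called lower and 4.92% higher in HH. At an unadjusted p under 0.05 there were 3, 0, 2 and 1 of the 8, against 3665, 1866, 3732 and 2292 of all 21464 tested genes. DESeq2 called 3, 0, 1 and 0 of the 8. Of all genes it called 928, 649, 1399 and 350 higher and 1235, 78, 910 and 835 lower. The edgeR likelihood ratio test called 2, 0, 1 and 0 of the 8. Of all genes it called 1068, 910, 1313 and 201 higher and 1024, 62, 716 and 989 lower. At an adjusted threshold of 0.05, edgeR's quasi-likelihood test passed none of the 8 in any of the 4 comparisons, where 2.12% of all genes passed in H, 0% in HC, 2.07% in HH and 0% in HHC. With DESeq2 2 of the 8 had an adjusted p under 0.05 in H and 1 in HH, and with no filter 1 and 2. The shares of all genes that passed in these fits were not counted, so these counts cannot be set against a background. Groups did not overlap for 3 genes in H, 1 in HC, 7 in HH and 2 in HHC, where 25.1%, 13.8%, 55.3% and 28.8% of all genes did not. The median log2 fold change of the 8 genes was 0.19 in H and 0.47 in HH, and -0.10 and -0.35 in the weight-loss groups HC and HHC. That of all tested genes was -0.15, -0.23, 0.27 and -0.06 in the same order.

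Differences between effects were tested as interactions, called at an adjusted p under 0.05. None of the 8 passed from H to HC (0% of all genes did), from HH to HHC (0.815% of all genes) or between H and HH (0% of all genes). At an unadjusted p under 0.05 there were 1, 1 and 0 of the 8, against 2538, 3334 and 1242 of all 21464 tested genes. DESeq2 called 0, 1 and 0 of the 8, and the share of all genes that it called in these tests was not counted.

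The 8 genes did not move as a block. The level of Lss went with that of Insig1 over the 20 libraries (r = 0.75), and Hmgcs1 with Insig1 (r = 0.618) and Lss (r = 0.596), whereas Fdft1 and Srebf2 went against each other (r = -0.756). Against the mean of the other 7 genes, r was 0.73 for Lss, 0.621 for Insig1 and -0.484 for Fdft1. The genes outside the set whose log2 CPM was most like the mean of the 8, among 9346 genes with a mean log2 CPM of at least 3, were Igfals (r = 0.885), Bscl2 (0.879), Fam110c (0.874), Nsdhl (0.862), Dgat2 (0.857), Agpat2 (0.849), Abhd15 (0.838) and Plpp2 (0.838). Nsdhl is a sterol dehydrogenase of the same pathway, Bscl2 encodes the lipid droplet protein seipin, and Dgat2 and Agpat2 are enzymes of triglyceride synthesis. These correlations are descriptions, since the points share libraries and depth.

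Among 13 other enzymes of the pathway, the calls lay late in the chain and in obesity. After the long HFD, 6 of 13 were called higher and 0 lower (4.92% of all genes were called higher): Cyp51, which demethylates lanosterol, Lbr and Dhcr7, which reduce sterol double bonds, Msmo1, which removes methyl groups, Ebp, which shifts a double bond, and Sc5d, which introduces one. Ebp was 131 and 109 CPM in HH and 32.3 and 39.2 CPM in CC_l, a log2 fold change of 1.75 (SE 0.41, adjusted p = 0.0357 in edgeR), and was the 1 of the 13 with an adjusted p under 0.05. Sc5d was 343 and 179 CPM in HH and 57.9 and 85.1 CPM in CC_l, a log2 fold change of 1.87 (SE 0.54, adjusted p = 0.0828 in edgeR). Lbr, at 38.3 and 13.9 CPM against 5.06 and 4.13, had a log2 fold change of 2.5 (SE 0.71, adjusted p = 0.0773 in edgeR). In each of these 3 genes both HH mice were above both controls. The groups did not overlap, in either direction, for any of the 13, and for 55.3% of all tested genes. The values of Cyp51, Msmo1 and Dhcr7 were 1.51, 1.56 and 1.77. The early enzymes Acat2, Mvk, Pmvk and Mvd had log2 fold changes of -0.56, -0.78, -1.04 and -0.37, none called. The median of the 13 was 1.42.

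These calls were fragile, and markers of other cell types also differed between HH and CC_l. Without CC_l replicate 1 or without HH replicate 1, 1 of the 13 was called, without CC_l replicate 2 there were 3, and without HH replicate 2 there were 5. HH replicate 1 was the higher of the HH mice for all 6 genes. When the fit held just HH and CC_l, Lbr was not called (2.56). Endothelial markers (Pecam1 and Cdh5 among 5) summed to 138 to 171 CPM in CC_l and 672 to 1260 in HH, with 4 of 5 called higher, and adipocyte progenitor markers to 372 to 603 and 2950 to 4620 CPM, with 3 of 5 called higher. Their part in the enzyme values was not tested.

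After the short HFD, 1 of the 13 other enzymes was called higher (3.57% of all genes were), Dhcr7, at 18.6, 30.2 and 12.3 CPM in H and 4.36, 5.46 and 7.97 CPM in C. The log2 fold change was 1.78 (SE 0.47, adjusted p = 0.0608 in edgeR), and the groups did not overlap. This held for 5 of the 13 and for 25.1% of all tested genes. Dhcr7 was not called without H replicate 2 (1.38), which left 0 of the 13, and without C replicate 3 there were 3 called. After weight loss none was called in HC or HHC by edgeR, DESeq2 or the likelihood ratio test. At an unadjusted p under 0.05 there was 1 of 13 in each, Cyp51 in HC (-0.74) and Tm7sf2 in HHC (-1.66). Of all 21464 tested genes, 1866 in HC and 2292 in HHC had such a p. The median of the 13 was 0.58 in H, 0.03 in HC and -0.47 in HHC. From HH to HHC the difference between the effects passed an adjusted p under 0.05 in edgeR for 0 of the 13 and an unadjusted p under 0.05 for 7, against 15.5% of all tested genes, and Ebp had a change of -2.22 (SE 0.57, adjusted p = 0.0756 in edgeR).

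**Figure D4:**
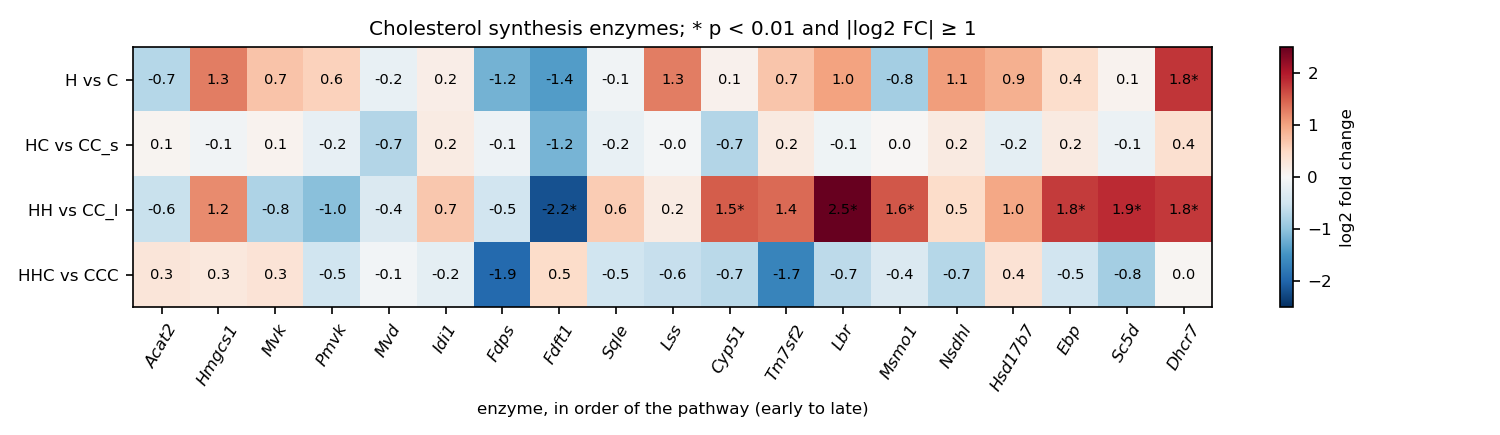
Log2 fold change (colour and number) of 19 cholesterol synthesis enzymes (x axis, early to late) in the 4 comparisons (y axis), with stars for called genes. Fdft1 carries the lower call in HH, at -2.17, while the 6 higher calls in HH all lie after Lss.

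Of the 8 genes that process SREBP or degrade sterol-regulated proteins, Srebf1, which encodes the SREBP that drives fatty acid synthesis, was the 1 called gene, lower in H and HHC, where 2.92% and 2.67% of all tested genes were called lower. It was 375, 423 and 466 CPM in C and 111, 102 and 117 CPM in H, and fell by 1.93 on the log2 scale (SE 0.47, adjusted p = 0.0405 in edgeR). It was 335 and 878 CPM in CCC and 164 and 72.7 CPM in HHC, and fell by 2.36 (SE 0.58, adjusted p = 0.196 in edgeR), a call lost without CCC replicate 2 (-1.51) or HHC replicate 2 (-1.89). This call was also lost when the fit held just HHC and CCC (-2.19). In HC and HH its values were -0.92 (SE 0.45) and -0.15 (SE 0.55), not called. The median of the 8 was -0.44 in H, -0.03 in HC, 0.32 in HH and -0.37 in HHC. Its paralog Srebf2 was not called in any of the 4 comparisons.

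Of 9 genes for lipoprotein binding and lysosomal release of sterols, 2 were called higher in H, 1 in HC and 4 in HH, and 1 was called lower in HHC. Of all tested genes 3.57%, 1.57% and 4.92% were called higher in H, HC and HH, and 2.67% lower in HHC. The list had medians of 0.85, 0.39, 1.72 and -0.58. Lipa, the lysosomal lipase that frees cholesterol from its esters, was 29.8, 29.7 and 25.3 CPM in C and 141, 352 and 71.1 in H (log2 fold change 2.73, SE 0.59, adjusted p = 0.0234 in edgeR). In the long arm it was 18 and 56.4 CPM in CC_l and 317 and 409 in HH (3.29, SE 0.74, adjusted p = 0.0309 in edgeR). Every HFD mouse was above every control of its arm, while groups did not overlap for 25.1% of all tested genes in H and 55.3% in HH. In HC it was also called, at 1.75 (SE 0.57, adjusted p = 0.536 in edgeR), but not without HC replicate 3 (1.06) or any of the CC_s mice (1.68 to 1.81). The macrophage markers summed to 582 to 1520 CPM in HC and 245 to 306 in CC_s, with 6 of 10 called higher and a median log2 fold change of 1.89.

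Vldlr, a receptor for triglyceride-rich lipoproteins, was called higher in H (1.5, SE 0.38, adjusted p = 0.0496) and HH (1.81, SE 0.47, adjusted p = 0.0549 in edgeR, 1.60 and not called without CC_l replicate 1). In HH, Mylip, a ligase that marks lipoprotein receptors for degradation (2.27, SE 0.66), and Npc1, which exports cholesterol from lysosomes (2.03, SE 0.67), were also called. Mylip lost its call without CC_l replicate 1 or 2 or HH replicate 1 (1.85 to 2.40), and Npc1 without CC_l replicate 1 or HH replicate 1 or 2 (1.53 to 2.12). Scarb1, the HDL receptor, was the gene called lower in HHC (-2.35, SE 0.69, adjusted p = 0.276 in edgeR), not without CCC replicate 2 (-1.32) or HHC replicate 2 (-2.0). Scarb1 was also not called when the fit held just HHC and CCC (-2.18). In H, 6 of the 10 macrophage markers were called higher, with a median of 2.23. The part of the macrophage marker shifts in these calls in H, HC and HH was not tested.

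Among 8 genes of sterol efflux, LXR signalling and esterification, 1 was called higher in H, 2 in HC, 2 in HH and 0 in HHC (1 at an unadjusted p under 0.05), against 3.57%, 1.57%, 4.92% and 0.447% of all tested genes. The medians were 0.85, 1.21, 1.61 and 0.55. Abcg1, a sterol exporter and LXR target, was 13.6, 16.9 and 18.9 CPM in C and 58, 139 and 43.7 in H (2.28, SE 0.52, adjusted p = 0.0316 in edgeR), and 11.3 and 19.1 in CC_l against 227 and 184 in HH (3.76, SE 0.68, adjusted p = 0.0187 in edgeR). In HC, Abcg1 (1.55, SE 0.51) and Nceh1, a cholesteryl ester hydrolase (2.78, SE 0.87), were called, and Nceh1 was 126 CPM in HC replicate 3 against 13.5 and 23.9 CPM in the other HC mice. Without HC replicate 3, which had the highest macrophage marker sum of the HC mice (1520 CPM), neither was called (1.19 and 1.23). Each also lost its call when CC_s replicate 2 or 3 was left out, as did Nceh1 without CC_s replicate 1 and Abcg1 without HC replicate 1 (Abcg1 1.19 to 1.51, Nceh1 2.61 to 3.04). Abcg1 was also not called in HC when the fit held just HC and CC_s (1.52) or with halved counts (1.45). In HH, Ch25h, which makes an oxysterol, was also called, at 3.01 and 2.86 CPM against 0.061 and 0 CPM in CC_l, and no fold is given because the CC_l libraries held 2 counts and 0 counts. Its call was lost without CC_l replicate 1 or 2 or HH replicate 1. The part of the macrophage marker shifts in the values of these genes was not tested. Of the 7 genes of the isoprenoid branch, which turns farnesyl diphosphate to other products, none was called by edgeR in H, HC, HH or HHC. At an unadjusted p under 0.05 there were 1, 0, 1 and 0 of the 7, against 3665, 1866, 3732 and 2292 of all 21464 tested genes. The branch had medians of 0.20, -0.28, -0.39 and 0.57. Its highest genes, Fnta and Nus1, ranged from 12.3 to 85.7 and from 12.2 to 49.4 CPM per kb over the libraries.

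Without the 6 libraries with other-tissue or nuclear RNA, part of the calls outside the 8 genes was lost. This setting leaves a lone control mouse in H against C, HH against CC_l and HHC against CCC. In H, the log2 fold changes were then 1.03 for Dhcr7, 1.42 for Vldlr and 1.5 for Abcg1, none of them called. In HH, Lbr (2.72), Dhcr7 (1.55) and Mylip (2.24) were not called. In HC, Lipa, Abcg1 and Nceh1 were at 1.03, 1.13 and 1.19, and in HHC, Srebf1 and Scarb1 were at -1.36 and -1.18, none called.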

How the data were processed

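TRAP–seq libraries of epiAT adipocytes from 20 mice in 8 groups were analysed. The authors trimmed reads with Trim Galore 0.6.6 (FastQC 0.11.9), aligned them to mm10 with HISAT2 2.2.1 and counted them on genes with featureCounts (Subread 2.0.1), per the submitters' processing notes, and deposited whole-number counts without normalization. Which annotation and strand option were used, and how pairs were treated, is not given in the sources used here. Of the nonzero counts up to 10, 89.6% to 95.8% per library were even. Symbols and positions came from GENCODE vM21 (45229 of 46078 identifiers, 98.2%).

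Counts were filtered with filterByExpr, scaled by TMM and fitted in edgeR 4.0.16 (R 4.3.3) with the quasi-likelihood test and 1 mean per group over all 20 libraries. The biological coefficient of variation was 0.68, and log2 CPM used a prior count of 2. The 95% intervals of fold changes come from this fit and cover the spread between mice, and limits of 3 counts cover counting error only. The procedure was tested on simulated data. Correlations with marker sums used 100000 two-sided permutations over all 20 libraries, regardless of group (numpy 2.4.6, scipy 1.17.1). Plots used matplotlib 3.10.9.

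The 8 genes, the gene lists and the tests were chosen with earlier results of these data known. Named genes were the 8, the called genes of the other lists (at most 4 per list and comparison, or the 2 highest where none was called) and the 8 most similar genes. Alternatives were DESeq2 1.42.0, the likelihood ratio test, RLE scaling, no filter, only the compared groups, the replicate number as a block, halved counts, an adjusted threshold and leaving out each mouse. Leaving out 6 libraries (over 500 CPM of epididymal epithelium, 100 CPM of spermatid or 20000 CPM of nuclear-retained RNA markers) was added after seeing the data. Some genes of the pathway are not reported here.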

Additional observations from a re-analysis of the deposited data

Results flagged for a closer look

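In the long arm the HH and HHC effects had opposite signs in 6 of the 8 genes, and in 3 of them every mouse followed its group's sign. The Insig1 effect was 1.87 in HH and -0.40 in HHC, a difference of -2.27 on the log2 scale. The Sqle effect was 0.63 in HH and -0.49 in HHC, a difference of -1.12. The Fdft1 effect was -2.17 in HH and 0.45 in HHC, a difference of 2.62. These 3 genes are listed because every HH mouse lay on the same side of the mean of its controls and every HHC mouse on the opposite side. By that sign rule the difference was not tested. How many of all tested genes have opposite signs or meet this rule was not counted. With 2 mice per group, groups did not overlap for 55.3% of all tested genes in HH and 28.8% in HHC. The edgeR interaction test gave adjusted p values of 0.34 for Insig1, 0.423 for Sqle and 0.21 for Fdft1, so that none passed. The HHC values of all 3 genes changed sign without CCC replicate 2.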

How the results depend on the processing

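Groups of 2 or 3 mice limit what these data can show, and many small effects changed sign. Over all alternatives that fit the data anew and mice left out, the adjusted threshold thus not among them, 357 of the log2 fold changes of the 8 genes kept their direction and their side of the threshold, 18 passed it newly, 5 lost it and 36 changed sign. The causes were not tested.

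In H against C, where 0 of the 8 genes were called, DESeq2 and the fit with no filter on low counts called 3. The likelihood ratio test and RLE scaling called 2, and halved counts 1. Of all genes, no filter called 1121 higher and 1371 lower of 34443, and halved counts 819 and 655 of 18985. Leaving out 1 mouse gave 0 to 3. Of the other synthesis enzymes, 1 was called, 0 without the 6 libraries, 0 at an adjusted p under 0.05 and 0 to 3 with 1 mouse left out. In HH against CC_l, 1 of the 8 was called, 2 with no filter or when the fit held just HH and CC_l, 0 at an adjusted p under 0.05 and 0 with any 1 mouse left out. Of the other enzymes, 6 were called, 1 at an adjusted p under 0.05 and 1 to 5 with 1 mouse left out. In HHC against CCC, leaving out 1 mouse gave 0 to 1 called genes of the 8. For the difference between the HHC and HH effects, DESeq2 and no filter each called 1 of the 8. The shares of all genes called there were not counted. With RLE scaling, 651 of all genes were called higher and 748 lower in H (766 and 626 with TMM), and 156 and 421 in HHC (96 and 573 with TMM). In HH, no filter called 1461 higher and 1418 lower of 34443 genes, and the fit of just HH and CC_l called 1447 and 447 of 17667.

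With the replicate number as a block, 0 of the 8 genes were called in HH (Fdft1 at -2.16) and 5 of the other enzymes. Insig1 in HC was then 0.15 and Lss in HC 0.00, against -0.16 and -0.04 without the block. Whether the numbers pair the mice was not settled. A correlation of deviations over 0.1 was seen in 5 of 18 same-numbered pairs in the short arm (-0.586 to 0.282). In the long arm it was seen in 2 of 12 (-0.26 to 0.115). Of the libraries, 4 of the 12 in the short arm and 0 of the 8 in the long arm correlated best with their own number. With 2 mice per group, the deviations in the long arm mirror each other, so its values repeat and are not independent. The calls of Lipa, Abcg1 and Nceh1 in HC and of Dhcr7 and Ch25h in HH were also lost under the block. With no filter, Lss in HC was 0.02.

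Without the 6 libraries, which leaves a lone mouse each in C, CC_l and CCC, some values had the other sign. In H this was -0.75 for Insig1. In HC it was 0.18 for Hmgcs1, 0.11 for Insig1 and 0.29 for Lss. In HHC it was 0.18 for Sqle, 0.22 for Insig1, -0.10 for Fdft1 and 0.91 for Srebf2. With 1 mouse left out, ranges that crossed 0 were -0.42 to 0.09 for Sqle, -0.23 to 1.10 for Idi1 and -0.09 to 0.41 for Srebf2 in H. In HC they were -0.32 to 0.23 for Hmgcs1, -0.49 to 0.16 for Sqle, -0.54 to 0.27 for Insig1, -0.34 to 0.23 for Fdps, -0.53 to 0.32 for Lss and -0.91 to 0.64 for Idi1. In HH, Lss ranged from -0.01 to 0.44. In HHC, the ranges were -0.89 to 0.05 for Sqle, -0.77 to 0.09 for Insig1, -0.23 to 1.76 for Fdft1, -2.21 to 0.57 for Idi1 and -0.97 to 0.76 for Srebf2. By Spearman's rho, 2 of the 8 genes named as most alike, Igfals and Fam110c, stayed among the first 8.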
